A study of Mus musculus with 8 samples.

Results

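The integrated stress response genes described here are 10 mouse genes that carry or answer a single signal, the phosphorylation of the translation factor eIF2: Ppp1r15a, Ppp1r15b, Eif2ak3, Eif2ak4, Atf4, Atf3, Ddit3, Trib3, Asns and Ddit4. They were chosen by name, with the values of these libraries already known. Ppp1r15a is among the 3 genes that pass the test between the groups, so for all members that comparison is given as a description, without p-values. Of the 24259 rows of the count table, 9 bear one of the 10 names. Ddit3 has no row under its own name. A row named Ddit3-1 is described beside the members, and which of the 2 gene models called Ddit3 in GENCODE M21 it counts is not known. Of the 9 rows, 8 passed the filter on low counts, which kept 12744 genes, and Atf3 did not.

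The RNA came from NP+IgDlowB220+ B cells, NP-specific cells before their entry into germinal centers, sorted from lymph nodes on day 3 after immunization with NP-OVA (with LPS in alum). In the HET group the B cells were helped by OT-II T cells, which recognise ovalbumin, of genotype CD4-Cre × Bcl6fl/+. In the WT group the OT-II T cells carried CD4-Cre alone, so both groups of T cells carried the Cre, which is driven by Cd4 regulatory elements. All recipients were CD45.1 Sap-/- mice, which lack the adaptor SAP that T cells need to help germinal center B cells, and the strain given is C57BL/6. Age and sex of the mice are not given in the sources used here. The altered Bcl6 allele was in the transferred T cells, so its loss cannot be read in the sequenced B cells. These B cells came from the recipients, which were Sap-/- in both groups. Each group consists of 4 libraries of about 200 cells, drawn from 1 pool of cells per group, so the spread between libraries is that of sorting and library preparation, and genotype cannot be told apart from pool.

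Cells phosphorylate eIF2 when proteins misfold in the endoplasmic reticulum, when amino acids run short, or on other stresses, and general protein synthesis then slows. A few mRNAs with short reading frames ahead of the main one, Atf4 among them, are translated more, and ATF4 switches on genes for amino acid supply and for recovery. PPP1R15A is the inducible subunit that brings protein phosphatase 1 to eIF2 and ends the response, and PPP1R15B is its constitutive relative. In B cells, activation and antibody production bring a secretory and metabolic load.

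The sequence that precedes Ppp1r15a is shown first, because this gene has the clearest difference between the groups. Its 250 bases ahead of the RefSeq start (GRCm38.p6, chr7:45526269-45526518, minus strand) hold 1 cyclic AMP response element with the letters TGACGTCA, in capitals, from 12 to 5 bases before the start.

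Ppp1r15a: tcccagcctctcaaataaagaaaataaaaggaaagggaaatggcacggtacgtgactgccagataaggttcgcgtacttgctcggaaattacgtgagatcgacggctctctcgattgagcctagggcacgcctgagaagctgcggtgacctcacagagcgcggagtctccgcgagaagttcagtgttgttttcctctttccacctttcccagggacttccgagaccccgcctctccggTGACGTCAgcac

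Promoters of 9 of the 10 members were found in the RefSeq table, which gives 250 bases before and 50 after each start on GRCm38.p6. Letters were searched on both strands. Members were counted per gene and the background shares per promoter. Ppp1r15a alone among them held the cyclic AMP response element, which occurs in 1.79% of all 32851 promoters and in 3.13% of the 11302 promoters of tested genes. The C/EBP-ATF element to which ATF4 binds with a partner, searched as TGATGNAA, occurred in 3 of the 9 (Atf3, Trib3 and Asns), against 3.97% of all promoters and 2.22% of those of tested genes. The AP-1 element, searched as TGANTCA, occurred in 2 of the 9 (Ddit3 and Eif2ak3), against 7.81% and 4.80%. The CArG element of serum response factor occurred in 0 of the 9, against 1.63% and 1.21%. Each of these 6 promoters held 1 match, so no motif overlapped another. The C/EBP-ATF matches are printed with their flanks because these 3 genes carry an element that the Ppp1r15a promoter lacks by letters, with the match in capitals. They begin 110 bases before the start in Atf3 (chr1:191183425-191183454), 15 bases after it in Trib3 (chr2:152344028-152344057) and 23 bases before it in Asns (chr6:7693214-7693243), all on the minus strand.

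Atf3: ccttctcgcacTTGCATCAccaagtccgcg
Trib3: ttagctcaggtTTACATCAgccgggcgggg
Asns: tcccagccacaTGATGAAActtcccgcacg

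Upstream start codons were counted in the principal transcripts of GENCODE M21. Ppp1r15a carried 3 to 7 of them ahead of its coding sequence, depending on which of its 2 principal transcripts was read. Atf4, Ppp1r15b and Eif2ak3 carried 3 each, Atf3 carried 1 and Asns 1 to 2. Ddit4, Trib3 and Eif2ak4 carried 0, and the transcripts named Ddit3 carried 0 to 2. At least 1 upstream ATG in every principal transcript was found for 6 of the 10 members, against 45.3% of 10255 tested genes, and at least 2 for 4 of the 10, against 23.0%.

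Levels can be compared between genes only per length, and for this the authors' TPM values were used. Atf4, the central transcription factor of the response, was the most abundant member in every library, with 365 ± 43.3 TPM in the HET libraries against 382 ± 28.2 TPM in the WT libraries (SD, n = 4 each). Its mean level was above that of 98.9% of the genes listed. Ppp1r15a came next in both groups, with 78.6 ± 18.6 TPM in the HET libraries against 171 ± 17.4 TPM in the WT libraries (SD, n = 4 each), and its 8 libraries overlapped neither those of Atf4 above nor those of Ddit4 below.

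Ddit4, which encodes an inhibitor of mTORC1, stood at 32.0 ± 7.11 TPM in the HET libraries against 34.6 ± 12.4 TPM in the WT libraries (SD, n = 4 each). Ppp1r15b stood at 16.1 ± 3.43 TPM in the HET libraries and 17.6 ± 3.57 TPM in the WT libraries (SD, n = 4 each), and the ranges of these neighbours over the 8 libraries overlapped. Below them, with no overlap, came Eif2ak3 at 3.93 ± 1.36 TPM in the HET libraries against 5.58 ± 0.884 TPM in the WT libraries (SD, n = 4 each). From Eif2ak3 down, each neighbour overlapped the next. The means over all 8 libraries were 2.38 TPM for Asns, 1.06 TPM for Eif2ak4, 0.975 TPM for Trib3 and 0.0128 TPM for Atf3. The order was that of both groups except that Eif2ak4 and Trib3 changed places in WT.

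**Figure D1:**
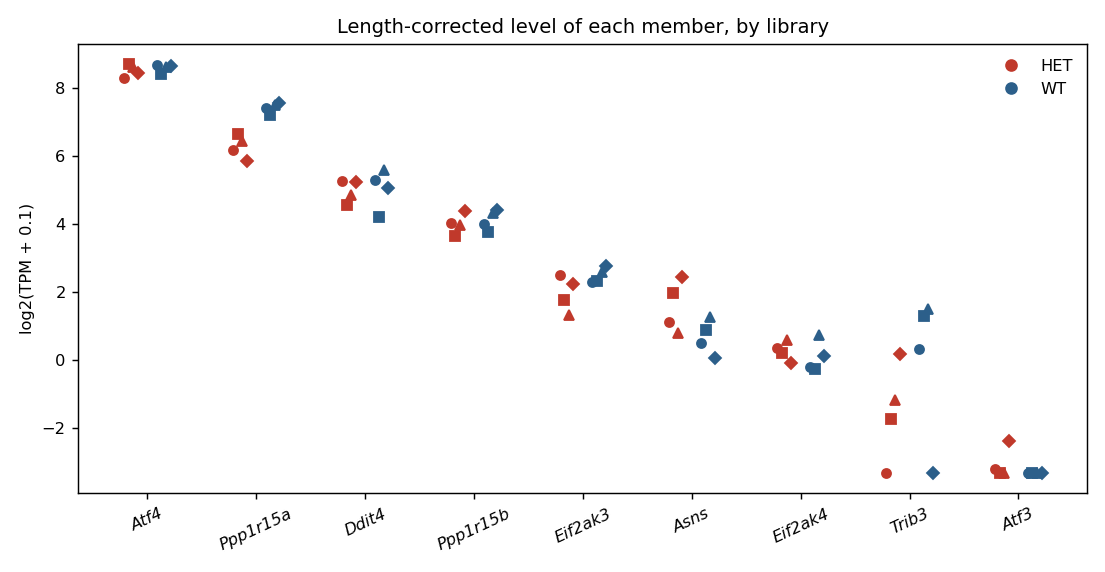
Levels per length of the 9 members with a row, as log2(TPM + 0.1), in each of 4 HET (red) and 4 WT (blue) libraries; marker shapes stand for replicates 1 to 4 as circle, square, triangle and diamond. Atf4 is highest throughout, Ppp1r15a is second with its WT libraries above its HET libraries, and libraries without a read of Trib3 or Atf3 lie at the bottom.

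To ask how these genes differ when the helping T cells keep a single intact Bcl6 allele, HET was compared with WT gene by gene, on the scale of counts per 1000000 after TMM scaling (CPM). Among the members, Ppp1r15a was lower in HET and the other members overlapped between the groups. In HET, Ppp1r15a (chromosome 7, 45522916 to 45526268, minus strand, GRCm38) had 62.8, 81.0, 70.7 and 47.6 CPM in replicates 1 to 4. In WT it had 139, 120, 139 and 153 CPM. Every HET library thus lay below every WT library. The means, 65.5 ± 14.1 CPM in the HET libraries against 138 ± 13.6 CPM in the WT libraries (SD, n = 4 each), were 2.11-fold apart, or -1.07 as the log2 ratio of HET to WT, which is the log2 fold change used throughout (SE 0.16, 95% interval -1.41 to -0.73). This interval and those that follow are for 1 gene each, with no adjustment for the number of genes. Between 314 and 1469 reads per library lie behind these values.

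In edgeR, 1 of the 8 members tested lay under an adjusted p of 0.05, where 0.0235% of all genes tested passed (3 genes, all lower in HET), and 1 passed in DESeq2, where 0.687% of genes passed. It was Ppp1r15a in both. It was also the 1 member of the 8 whose groups did not overlap, against 4.61% of the genes tested. Since the call of Ppp1r15a was known when the members were listed, nothing is read from these counts. Its call was lost in each of the 8 fits that left out a library, in which its log2 fold change ranged from -1.19 to -0.95.

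**Figure D2:**
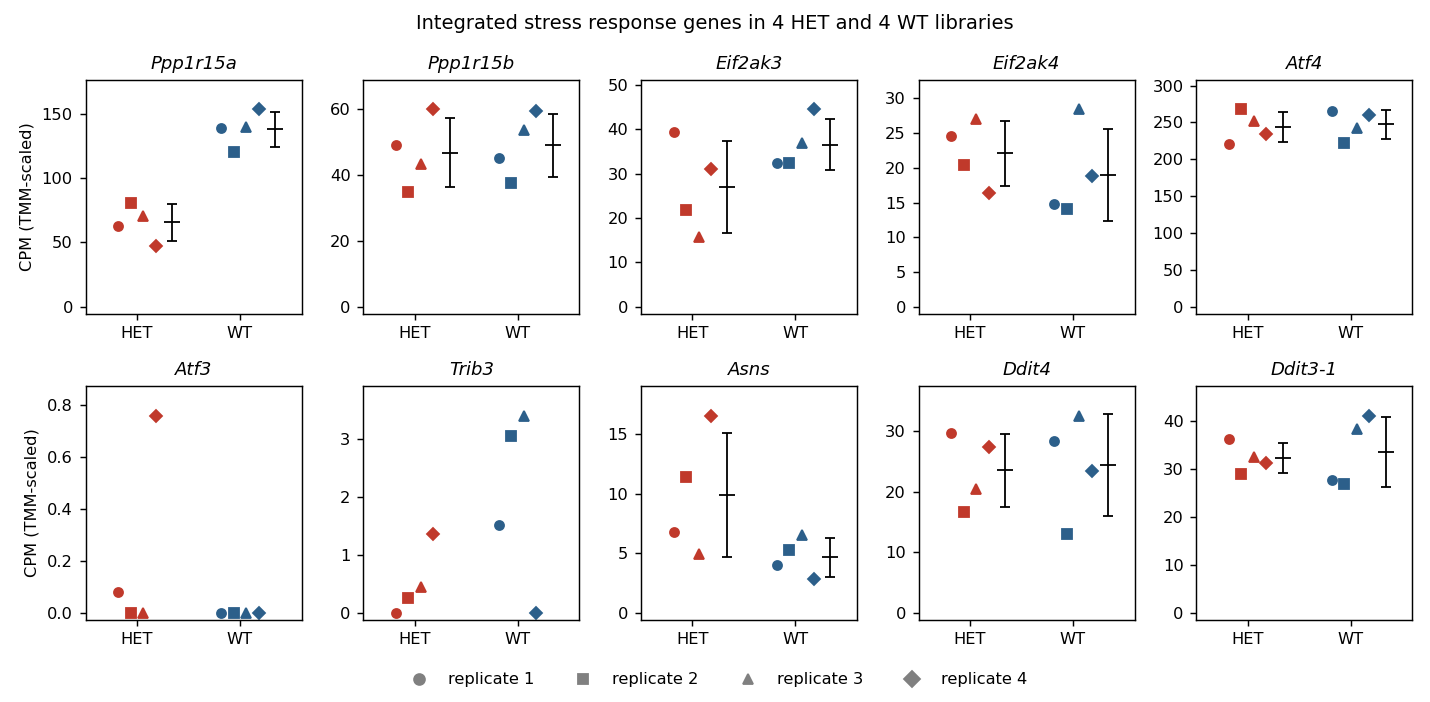
TMM-scaled CPM (vertical axes, starting at 0 and differing between panels) of the 9 members with a row and of the row Ddit3-1 in 4 HET and 4 WT libraries; bars give the mean ± SD and are left out for Atf3 and Trib3, which have libraries without a read. Ppp1r15a is the panel in which the groups do not overlap.

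Ppp1r15b (chromosome 1, 133131143 to 133139783), the constitutive counterpart, had 48.9, 34.7, 43.1 and 59.7 CPM in the HET replicates and 45.1, 37.5, 53.4 and 59.3 CPM in the WT replicates. The groups covered the same range. Its log2 ratio of HET to WT came to -0.07 (SE 0.21, interval -0.51 to 0.38.) Set against each other per length, Ppp1r15a exceeded Ppp1r15b by 4.43, 8.04, 5.65 and 2.75 times in the HET libraries and by 10.6, 11.04, 9.01 and 8.92 times in the WT libraries. The ratio of TPM was therefore lower in every HET library, at 5.22 ± 2.23 (SD, n = 4) against 9.89 ± 1.09 (SD, n = 4). HET replicate 4 had the lowest Ppp1r15a and the highest Ppp1r15b of its group, and HET replicate 2 the highest Ppp1r15a and the lowest Ppp1r15b. WT did not share this opposite order: WT replicate 4 was the highest of its group for both genes, and WT replicate 2 the lowest for both.

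The kinases come next. Eif2ak3 (chromosome 6, 70844515 to 70905245) encodes PERK, which senses misfolded protein in the endoplasmic reticulum. It had 39.3, 21.8, 15.7 and 30.9 CPM in HET and 32.4, 32.4, 36.9 and 44.5 CPM in WT. HET replicate 1 was above 3 of the 4 WT libraries, and the other HET libraries were below all of them. The log2 ratio of HET to WT came to -0.43 (SE 0.27, interval -1.01 to 0.15). With 1 library left out it ranged from -0.68, without HET replicate 1, to -0.25, without HET replicate 3. HET replicate 1 stood apart in markers of antibody-secreting cells: 8 genes summed to 1981 CPM there, where the rest of the HET libraries had 222 to 347 CPM. Jchain alone gave 1576 CPM of this, and the other 7 genes summed to 405 CPM against 197 to 250 CPM. The part of this in Eif2ak3 was not tested.

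Eif2ak4 (chromosome 2, 118388618 to 118475234) encodes GCN2, which senses uncharged tRNA when amino acids run short. It had 24.5, 20.3, 27 and 16.4 CPM in HET and 14.7, 14.02, 28.4 and 18.8 CPM in WT. The highest and the lowest value were both in WT. Its log2 ratio of HET to WT came to 0.22 (SE 0.29, interval -0.40 to 0.84.)

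Among the transcription factors, Atf4 (chromosome 15, 80255184 to 80257541) varied least of all members. It had 221, 268, 252 and 234 CPM in HET and 266, 222, 242 and 259 CPM in WT. The coefficient of variation was 8.37% in HET and 8.0% in WT, and the groups overlapped almost fully. The log2 ratio of HET to WT came to -0.02 (SE 0.10), and its interval of -0.24 to 0.20 is the narrowest of the members. ATF4 protein is set largely by translation, which RNA levels do not show.

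Ddit3 encodes CHOP, a factor downstream of ATF4 that promotes cell death under lasting stress. The row Ddit3-1, whose gene model is not known, had 36.3, 28.9, 32.5 and 31.2 CPM in HET and 27.7, 26.9, 38.4 and 41.1 CPM in WT. All HET libraries lay inside the range of WT. Its log2 ratio of HET to WT came to -0.06 (SE 0.21, interval -0.51 to 0.40.) The 2 gene models named Ddit3 overlap on chromosome 10 (127290774 to 127296288 and 127290829 to 127293753), and all 105 exonic bases of the shorter are also exonic in the longer, so reads there could be split between them or discarded.

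Atf3 (chromosome 1, 191170296 to 191218039), a stress-induced factor of the ATF family that also belongs to the AP-1 group, was close to undetected. Over all 8 libraries it had 6 reads, 5 of them in HET replicate 4 and 1 in HET replicate 1. In the remaining 6 libraries no read was counted, which allows up to 3 reads each, or 0.285 to 0.449 CPM (counting error only). No fold change is given.

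The 3 targets of the pathway differed among themselves. Asns (chromosome 6, 7675169 to 7693254) encodes asparagine synthetase, which makes asparagine. It had 6.75, 11.4, 4.94 and 16.5 CPM in HET and 3.99, 5.28, 6.56 and 2.82 CPM in WT. HET replicates 1, 2 and 4 lay above all WT libraries, and HET replicate 3 lay among them. The log2 ratio of HET to WT came to 1.08 (SE 0.47, interval 0.08 to 2.08), resting on 27 to 109 reads per library, and the gene did not pass over all genes tested. Without HET replicate 4 it was 0.73.

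Trib3 (chromosome 2, 152337422 to 152344032) encodes a pseudokinase that holds ATF4 and DDIT3 in check. It had 0, 2, 3 and 9 reads in HET and 16, 30, 27 and 0 reads in WT. WT replicates 1 to 3 were above all HET libraries, and WT replicate 4 had none. The log2 ratio of HET to WT, -1.98 (SE 1.24, interval -4.65 to 0.69), ranged from -3.10, without HET replicate 4, to -1.51, without HET replicate 1, when a library was left out, and was -0.76 with log2(TPM + 1).

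Ddit4 (chromosome 10, 59949669 to 59951834) had 29.7, 16.7, 20.4 and 27.3 CPM in HET and 28.3, 13.1, 32.6 and 23.5 CPM in WT. The highest and lowest values were in WT, and all HET libraries fell between them. Its log2 ratio of HET to WT came to -0.05 (SE 0.30, interval -0.69 to 0.59.) The sign turned in 4 of the 8 fits that left out a library, the highest value being 0.13. Over the 8 members tested, 2 fold changes were above 0 and 6 below, with a median of -0.06, against a median of -0.0014 over all 12744 genes.

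**Figure D3:**
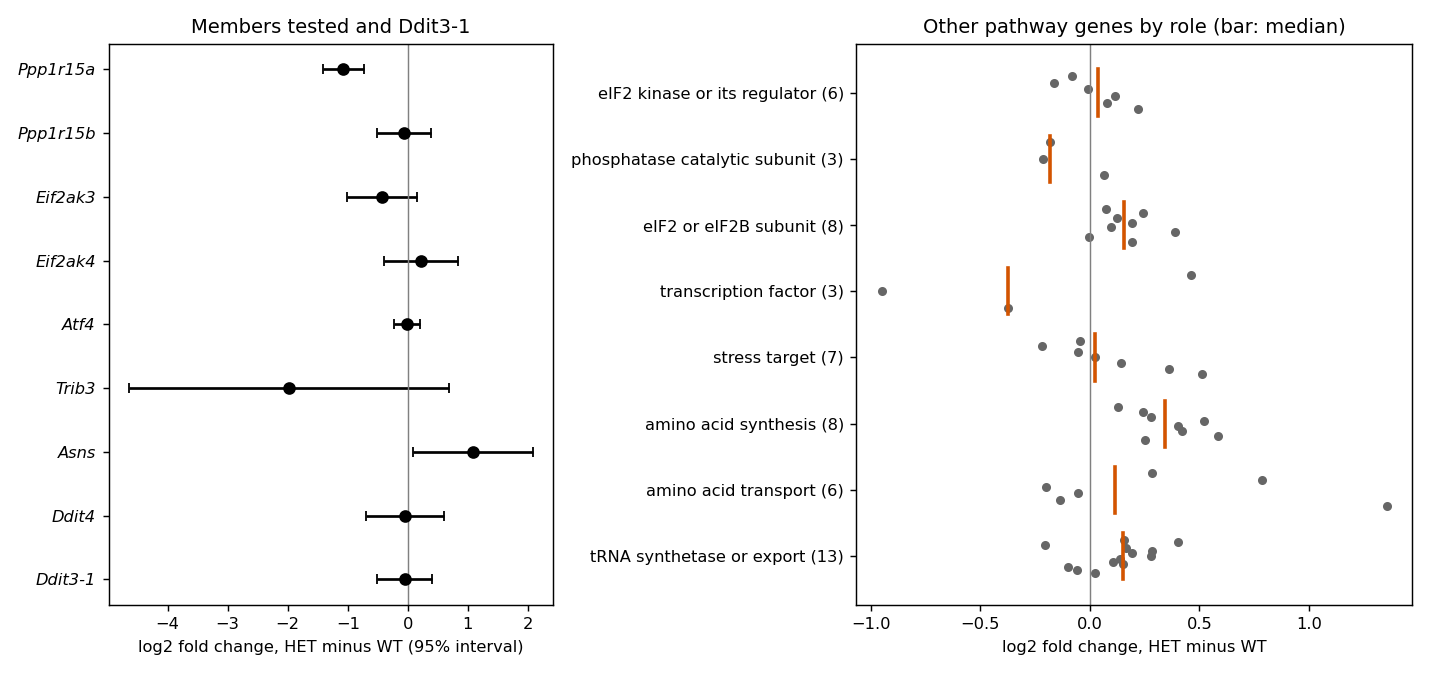
Left, log2 fold changes (HET minus WT) of the 8 members tested and of Ddit3-1, with 95% intervals; right, those of 54 other genes of the pathway by role, each point a gene and each bar a median. Ppp1r15a lies at -1.07, Atf4 and Ppp1r15b lie near 0, and the interval of Trib3 is the widest. All 8 amino acid synthesis genes tested lie to the right of 0.

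A wider list of 62 other genes of the pathway, set down by role, puts the members beside their partners. Of the 62, 60 had a row and 54 were tested. In edgeR 0 of the 54 passed over all genes, and in DESeq2 0 passed. At an unadjusted p under 0.05 there was 1 higher in HET and 0 lower, against 7.22% of all genes tested. The groups did not overlap for 2 of the 54, Slc7a1 and Atf5 (the latter named after its values were seen), where 4.61% of all genes tested did not overlap. Atf5 was low and its groups nearly met, at up to 4.18 CPM in HET and from 4.37 CPM in WT (log2 fold change -0.37, SE 0.46). Fold changes were above 0 for 37 and below 0 for 17, with a median of 0.13, while 49.9% of all genes tested were above 0.

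The 1 gene at an unadjusted p under 0.05 was Slc7a1, a transporter of arginine and lysine, with 25, 30.6, 31.01 and 31.5 CPM in HET and 22.9, 17.2, 10.7 and 17.5 CPM in WT. The log2 ratio of HET to WT came to 0.79 (SE 0.26, edgeR adjusted p = 0.554). Next by p in this direction were Phgdh, the first enzyme of serine synthesis, at 272 ± 88.8 CPM in the HET libraries against 205 ± 32.8 CPM in the WT libraries (SD, n = 4 each), and Sars, a seryl-tRNA synthetase (edgeR adjusted p = 0.706 and 0.738). Their log2 fold changes were 0.40 and 0.28. In the other direction, among genes whose mean log2 CPM reached 4, the lowest p belonged to Wars, Slc1a5 and Ppp1cc, with log2 fold changes of -0.20, -0.14 and -0.18 (edgeR adjusted p = 0.814, 0.822 and 0.825). Below that level, Cebpb, a partner of ATF4 named after its values were seen, had a lower p, with 3.30 ± 1.152 CPM in the HET libraries against 6.41 ± 3.39 CPM in the WT libraries (SD, n = 4 each, edgeR adjusted p = 0.745). PPP1CC is a catalytic subunit with which PPP1R15A works. The 3 catalytic subunits together (Ppp1ca, Ppp1cb and Ppp1cc) summed to 853 to 984 CPM in HET and 880 to 927 CPM in WT.

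By role, the enzymes of amino acid synthesis had 8 of 8 fold changes above 0 and a median of 0.34, and 0 passed. With 1 library left out, 7 or 8 of the 8 were above 0. The summed level of the 9 enzymes overlapped between groups, at 544 to 912 CPM in HET and 424 to 756 CPM in WT. The tRNA synthetases and the export factor Xpot had 10 of 13 above 0 (median 0.15), and the eIF2 and eIF2B subunits 7 of 8 (median 0.16). With 1 library left out, these counts ranged from 8 to 12 of 13 and from 5 to 8 of 8. Both were lowest without HET replicate 4, with medians of 0.09 and 0.06. The other kinases and their regulators had 3 of 6 above 0 (median 0.04), and the amino acid transporters 3 of 6 (median 0.11). The catalytic phosphatase subunits had 1 of 3 above 0 (median -0.18), as had the other transcription factors (1 of 3, median -0.37). Of 12 further stress targets, 7 were tested, with 4 above 0 (median 0.02). Chac1, Vldlr, Stc2 and Gdf15, which lasting stress induces in many cells, were too low to test, the highest value being 1.22 CPM for Chac1 in WT replicate 2. The other arms of the unfolded protein response, which run through IRE1 and ATF6, had 9 of 12 above 0 (median 0.17), and 0 of the 12 passed in edgeR or DESeq2. Within HET, 7 of these 12 genes were highest in replicate 1, the library high in Jchain, and 5 in replicate 4. Without HET replicate 1, 6 of the 12 were above 0 and the median was -0.02. Without WT replicate 2, 6 of the 12 were also above 0 (median 0.02). The median was highest, at 0.33, without WT replicate 4, so it depended on more than 1 library.

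Proliferation markers are set beside these values: all 10 had fold changes above 0 (median 0.70) and their summed level was 721 to 1020 CPM in HET and 340 to 695 CPM in WT. In edgeR 0 of the 10 passed, and in DESeq2 2 passed, against 0.0235% and 0.687% of all genes tested. Their part in Asns and the amino acid genes was not tested.

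Ppp1r15a is also an early response gene, and genes of that kind were examined as a list of 18 that rise quickly on stimulation or handling of cells. Of the 17 tested, 14 had fold changes below 0 (median -0.46). In edgeR 2 of the 17 passed, Fos and Jun, both lower in HET, against 0.0235% of all genes tested. In DESeq2 7 passed, against 0.687%. Fos, Jun and Ppp1r15a are the 3 genes that passed in edgeR. The list was drawn up with earlier results of these data known, so nothing is read from these counts. With 1 library left out, Fos passed in 8 of 8 fits and Jun in 1 of 8. Fos stood at 76.4, 95, 114 and 90.2 CPM in HET and 320, 233, 226 and 230 CPM in WT. Jun stood at 106, 146, 123 and 143 CPM in HET and 219, 233, 256 and 329 CPM in WT. The heat shock gene Hspa1a, named after its values were seen, stood at 11.3, 27.6, 12.3 and 0.910 CPM in HET and 165, 87.6, 107 and 180 CPM in WT, and passed in DESeq2 (adjusted p = 0.0121) but not in edgeR (adjusted p = 0.414). Other genes of the list hardly differed. Egr1, Ier2, Nr4a1, Btg2 and Socs3, also named after their values were seen, overlapped between the groups. Their log2 fold changes were -0.12, -0.18, -0.06, -0.06 and 0.09. Groups did not overlap for 8 of the 17 tested, against 4.61% of all genes tested, and nothing is read from this count either. The summed level of the 18 genes overlapped, at 3817 to 4853 CPM in HET and 4748 to 5231 CPM in WT, and a large share came from the chaperone genes Hspa8 and Hsp90aa1, whose means were higher in HET. Without these, a choice made after the values were seen, the other 16 genes summed to 1796 to 2004 CPM in HET and 2511 to 3062 CPM in WT. Both genes left out were among the 3 of the 17 tested with fold changes above 0. The choice thus favours a gap between the groups, and nothing is read from it. The part of cell handling in Ppp1r15a was not tested, and each group was sorted from its own pool.

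Likeness to Ppp1r15a was measured as the root mean square difference of log2 CPM over the 8 libraries, each gene centred on its own mean, among 7264 genes whose mean log2 CPM reached 4. The nearest were Zkscan14 (0.195), Fam43a (0.233), Zbtb17 (0.262), Epc1 (0.263) and Dock10 (0.265), where the median gene was at 0.642. Since the profile of Ppp1r15a is mostly its difference between the groups, this choice selects genes lower in HET. The 5 had log2 fold changes from -1.03 for Zkscan14 to -0.64 for Zbtb17, and none of them passed (edgeR adjusted p = 0.117 to 0.554). Jun was at 0.272 (rank 8) and Fos at 0.312 (rank 13). With each group centred on its own mean, these genes ranked lower, from 40 for Zbtb17 to 980 for Epc1 among the 5, with 2057 for Fos and 2151 for Jun. The members themselves were farther off, with 0.561 for Atf4, 0.578 for Eif2ak3, 0.655 for Ppp1r15b and 2.21 for Trib3.

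**Figure D4:**
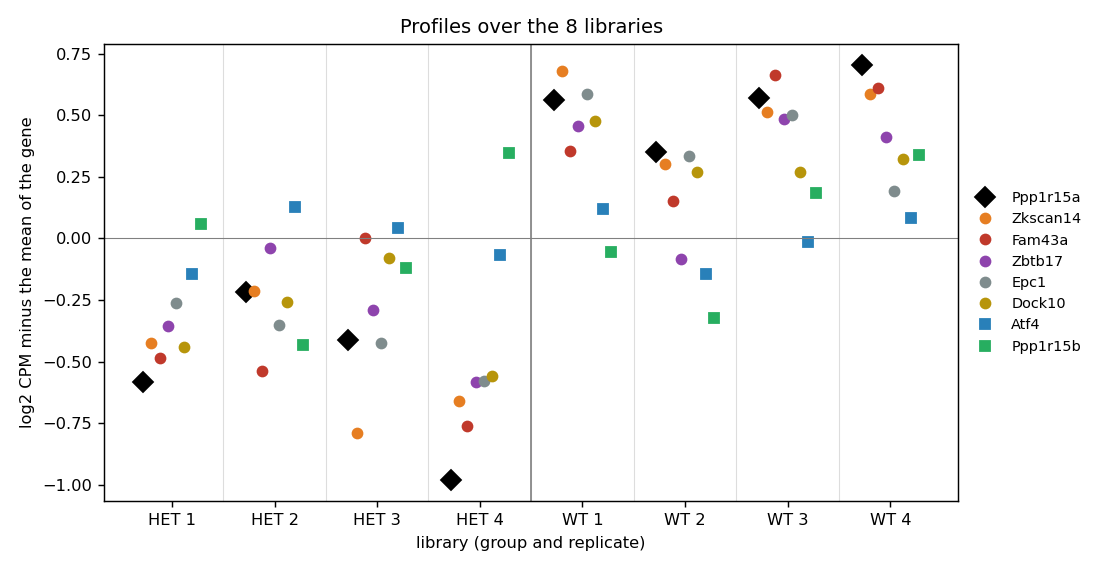
log2 CPM of Ppp1r15a (black diamonds), its 5 nearest genes (circles) and the members Atf4 and Ppp1r15b (squares) in each of the 8 libraries, each gene centred on its own mean. The black diamonds lie below 0 in all HET and above 0 in all WT libraries, while the squares lie on both sides of 0 in both groups.

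Facts of the libraries that bear on these values are few. Total counts were 6652386 to 12559189 per library, and 3 reads corresponded to 0.241 to 0.455 CPM. The 9 B cell markers examined (Cd79a, Ms4a1 and others) were present, with a summed level of 9756 to 10719 CPM in HET and 11341 to 12163 CPM in WT, and all 9 had fold changes below 0 (median -0.21). Unadjusted p in edgeR was under 0.05 for 6 of the 9, against 7.22% of all genes tested. In edgeR 0 of the 9 passed, and in DESeq2 1, against 0.0235% and 0.687% of all genes tested. Of the 12 T cell markers, 11 were tested and all 11 had fold changes above 0, with sums of 290 to 529 CPM in HET and 188 to 427 CPM in WT, while Cd4 was at most 0.758 CPM. The 10 myeloid markers, 9 of them with a row, summed to 72.5 to 254 CPM in HET and 39.9 to 506 CPM in WT. How much other cells add to the members was not tested, and in sorted bulk samples fewer cells of a type cannot be told apart from less RNA per cell.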

How the data were processed

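RNA of about 200 sorted B cells per library was amplified by a SMART-Seq2 protocol. The authors aligned reads to GRCm38 (mm10) with HISAT2 2.2.1 and counted them per gene with HTSeq; annotation release and strand setting are not given in the sources used here. The deposited count table holds whole-number counts for 24259 symbols, and the authors' TPM table holds 24232 of them; 27 rows, Ddit3-1 among them, have no TPM. The count analysis used edgeR 4.0.16 (R 4.3.3): filterByExpr, TMM, and the robust quasi-likelihood F-test between groups with Benjamini-Hochberg adjustment over 12744 genes at 0.05. CPM are counts per 1000000 after TMM scaling. Dividing a log2 fold change by the square root of its F gave the SE. Without molecular identifiers, floors cover counting error only. The script was tested on simulated data. DESeq2 1.42.0, the tool of the study, other normalizations and filters, limma 3.58.1 on log2 TPM, a replicate block and leaving out each library were alternatives.

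Members and lists were chosen with earlier results of these data known. Named are all members, the 3 wider-list genes of lowest p per direction whose mean log2 CPM reached 4, list genes past the threshold and the 5 genes nearest to Ppp1r15a. The paper states that cells of the recipients of a group were pooled before the repeats were sorted. The p-values therefore measure only the spread between repeats of 1 pool. Same-numbered libraries did not deviate together (correlations across genes of -0.0541 to 0.0038). One marker gene of the B cell list is not reported here and was left out of its counts and sums.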

Additional observations from a re-analysis of the deposited data

Results flagged for a closer look

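A value is listed here when the gap between the highest or lowest library and the next one is unusually wide for a group of 4 libraries. Of 35 such groups examined 3 had such a gap, and chance gives about 1 in 20. Atf3 stood at 0.758 CPM in HET replicate 4, which is 5 reads, with 0 to 0.0804 CPM in the rest of HET. The summed level of the early response list was 4748 CPM in WT replicate 3, with 5213 to 5231 CPM in the rest of WT; Ppp1r15a itself was at 139 CPM there, inside the range of WT. The markers of antibody-secreting cells summed to 1981 CPM in HET replicate 1, with 222 to 347 CPM in the rest of HET, and Jchain gave 1576 CPM of it; without that library the log2 fold change was -1.05 for Ppp1r15a and -0.68 for Eif2ak3, whose range was -0.68 to -0.25 over the 8 libraries left out in turn.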

How the results depend on the processing

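The log2 fold change of Ppp1r15a was below 0 under all 18 alternatives, from -1.19 to -0.95, but its call was not stable. With all libraries it passed under 6 of 10 other settings, and 0 members passed with the replicate block, with log2(TPM + 1), with log2(TPM + 0.1), or with log2(TPM + 1) at a mean TPM of at least 1. With 1 library left out, 0 members passed in each of the 8 fits. Over all genes, 3 passed, against 95 in DESeq2, 38 without a filter, 7 at a mean of at least 50 counts, 1 with log2(TPM + 0.1), and 0 with log2(TPM + 1), with or without its filter; with 1 library left out the count was 1 to 6. The replicate numbers did not pair the libraries, and with the replicate block 0 genes passed. Of the wider list, 0 genes passed under any of the 18 alternatives, and its median ranged from 0.07 to 0.22. The median of the members ranged from -0.21 to -0.0048. Lists without 1 library, and sums without Hspa8, Hsp90aa1 or Jchain, were added after seeing the data. The cause of these differences was not tested. The sign turned when a library was left out for Atf4 (up to 0.03), Ppp1r15b (up to 0.06), Ddit3-1 (up to 0.06, an alternative added after seeing the data) and Ddit4 (up to 0.13). Low counts limit Atf3, Trib3 and Asns.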
